A study of Homo sapiens with 4 samples.

Results

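CLU, GPC6, DPF3, LRRN3 and PADI2 are 5 genes chosen because at least 1 probe of each gave more signal in HuCCT1 cells transfected with miR-376c or siGRB2 than in cells transfected with a negative control. Their probes were found by the transcript accession given for each spot, and 9 of the 34127 non-control probes of the array carried an accession of these genes, 1 for CLU, 2 for GPC6, 3 for DPF3, 1 for LRRN3 and 2 for PADI2. The genes, 5 of 19483 named on the array, were selected on the differences between each treatment and the negative controls, so these differences are described here without a test. The name "raised" applied to 1 probe of each gene only: the other probe of GPC6, the other 2 probes of DPF3 and the other probe of PADI2 were not at least 2-fold above both negative controls with either treatment.

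HuCCT1 is a human cell line derived from an intrahepatic cholangiocarcinoma, a tumor of the bile duct epithelium. Cells received 30 nM of 1 of 4 small RNAs by lipofection. The 4 were a mimic of mature miR-376c (labelled miR-376c), its negative control (miControl), an siRNA against GRB2 (siGRB2) and a non-silencing siRNA (siControl). After 24 h all 4 cultures were moved to medium with 0.1% serum and EGF at 5 ng/ml for a further 24 h, so that no culture without EGF was compared. Total RNA was hybridised to 1-color Agilent arrays, 1 array per condition. Without replicate cultures no spread of a condition could be estimated, and a difference between arrays compares those cultures and not the conditions in general. miControl and siControl are different molecules and were not treated as replicates of each other.

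A microRNA guides a silencing complex to transcripts that pair with its seed, the bases near its 5′ end. GRB2 is an adaptor that links the activated EGF receptor to RAS signaling. The mature strand that defines the miR-376c condition is shown because it is the agent that separates that array from the others; the sequence is that of RefSeq (GRCh38.p14, chr14:101039732-101039752, plus strand), with the seed, bases 2 to 8, in capitals.
hsa-miR-376c-3p: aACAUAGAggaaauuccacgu

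The 5 genes belong to different families. CLU encodes clusterin, a secreted chaperone that binds unfolded proteins and inhibits the terminal complement complex. GPC6 encodes glypican 6, a heparan sulfate proteoglycan held on the cell surface by a lipid anchor, a class of molecules that binds growth factors. DPF3 encodes a double PHD finger subunit of the BAF (SWI/SNF) chromatin remodeling complex, LRRN3 a transmembrane protein with leucine-rich repeats known mostly from neural tissue, and PADI2 a calcium-dependent peptidylarginine deiminase, which converts arginine in histones and other proteins to citrulline.

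Levels are log2 processed signals minus the 75th percentile of each array, so that a level of 0 is the 75th percentile and 1 unit is a 2-fold change. A probe was taken as detected where the scanner software marked it well above background, and the error given for a difference is that of the software's estimate for the spots compared, each member probe having 1 spot on an array. It does not cover differences between cultures. The 75th percentile of the signal lay between 1719 and 2689, between 21811 and 24119 probes were detected on an array, and 21239 were detected on all 4. The siControl array stood apart. Of these 21239 probes, 1247 to 1749 differed at least 2-fold between siControl and another array, against 231 to 283 between any other pair of arrays. The median difference of all probes from siControl was 0.09 for miR-376c and 0.15 for siGRB2, against −0.03 and 0.04 from miControl. GRB2, the targeted gene, had levels of 0.62 in miControl, −0.10 in siControl, 0.07 in miR-376c and −0.65 in siGRB2. It was thus lowest in siGRB2, whereas the miR-376c level was 0.55 below miControl and 0.17 above siControl. All 8 markers of biliary epithelium tested were detected on every array. Of the 3 hepatocyte markers, APOA1 was detected on all 4 arrays and ALB and HNF4A on none, and of the 4 fibroblast markers, COL1A1 and LUM were detected on all 4 and COL3A1 and DCN on none. The leukocyte markers PTPRC and CD68 (2 of 3) and the endothelial marker VWF (1 of 2) were also detected on all 4 arrays.

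With miR-376c, 3 of the 9 member probes were at least 2-fold above miControl, where 1.57% of all probes tested were. Against siControl 5 of 8 were, beside 3.91% of all probes. With siGRB2, 4 of 9 were at least 2-fold above miControl (1.93% of all probes) and 6 of 8 above siControl (6.7% of all probes). CLU, GPC6 and DPF3 each had 1 probe above both negative controls with miR-376c (3 of 8 member probes, 0.987% of all probes), and GPC6, DPF3, LRRN3 and PADI2 each had 1 with siGRB2 (4 of 8, 1.23% of all probes). Above both negative controls with both treatments were the GPC6 probe A_23_P371682 and the DPF3 probe A_33_P3423185 (2 of 8), as were 15 of 22410 probes tested, 0.0669%. The rule that chose the genes used these contrasts, so nothing is read from their shares. Nearest to the 2-fold limit, a log2 difference of 1, were CLU with siGRB2 against miControl at 0.70, outside it, and DPF3 probe A_33_P3240951 with miR-376c against siControl, inside it at 2.01-fold.

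CLU, the secreted chaperone, was measured by probe A_23_P215913, and its level was −2.44 in miControl, −2.87 in siControl, −1.19 in miR-376c and −1.74 in siGRB2. Both treatments were above both controls, and miR-376c was the highest. CLU was higher with miR-376c by 1.25 than in miControl (2.39-fold, scanner error 0.21) and by 1.68 than in siControl (3.20-fold, error 0.21). With siGRB2 it was higher by 0.70 than in miControl (1.62-fold) and by 1.12 than in siControl (2.17-fold), both with an error of 0.21. The last of these differences was under 2-fold in 3 other settings, at 0.84 when the arrays were shifted to their medians, 0.92 with quantile normalization and 0.94 with a normexp background correction run without spots of high local background. Normexp as used here adds an offset of 50 to every corrected signal. The offset by itself makes differences between small signals smaller, here and for the probes below. The 4 arrays ran in the order miR-376c, siGRB2, miControl and siControl, with every step larger than 2 scanner errors. The step between the negative controls was 0.42 and that between the treatments 0.56.

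GPC6, the glypican, was measured by probes A_23_P371682 and A_32_P97169, both given the same transcript accession. At probe A_23_P371682 the level was −5.77 in miControl, −5.84 in siControl, −3.72 in miR-376c and −3.87 in siGRB2. The controls were alike and the treatments were alike: the gap was 0.07 between controls and 0.15 between treatments, each smaller than its scanner error of 0.35 and 0.22. The miR-376c level was 2.05 above miControl (error 0.26) and 2.13 above siControl (error 0.32), and the siGRB2 level 1.90 (error 0.26) and 1.97 (error 0.33) above them. The signals behind these levels were small: 49.3 in miControl, 30.0 in siControl, 157 in miR-376c and 136 in siGRB2, where the lowest signal marked well above background was between 21.2 and 24.4 on an array. The local background of this spot carried an outlier flag on miControl. On siGRB2 the spot had a width of 36.8 where the median spot of the array had 50.7. The part of the flag and of the width in the result was not tested.

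The other GPC6 probe gave another pattern. At A_32_P97169 the level was −1.41 in miControl, −0.57 in siControl, −1.24 in miR-376c and −1.30 in siGRB2, from signals of 810 to 1161. siControl was the high array here, and the other 3 lay within their scanner errors of their neighbours. Against miControl the difference was 0.17 with miR-376c and 0.11 with siGRB2, and against siControl −0.67 and −0.73, with an error of 0.20 each. The mean difference over the 2 probes of GPC6 lay between 0.62 and 1.11 in the 4 comparisons of a treatment with a control.

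DPF3, the BAF subunit, had 3 probes, of which A_33_P3423185 and A_23_P307392 were listed under the same cDNA accession and A_33_P3240951 under the RefSeq transcript. At A_33_P3423185 the level was −6.95 in miControl, −5.87 in siControl, −3.82 in miR-376c and −4.21 in siGRB2. Both treatments were above both controls, but the controls themselves differed by 1.08 (error 0.41). With miR-376c the probe was 3.13 above miControl (error 0.35) and 2.05 above siControl (error 0.30), and with siGRB2 2.74 (error 0.35) and 1.67 (error 0.30) above them. The miControl signal of 21.7, with an error of 4.76, lay next to the lowest signal detected on that array, 21.2, and its spot had the nominal width of 65 where the median spot of the array had 51.3. The siControl signal was 29.4, and the local background of the spot was flagged as an outlier on siControl and on siGRB2. The part of these spot properties in the difference was not tested.

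Neither of the other DPF3 probes was at least 2-fold above both controls with a treatment. At A_23_P307392, which shares its accession with the raised probe, the level was −3.97 in miControl, −4.65 in siControl, −4.19 in miR-376c and −4.02 in siGRB2. The siControl array was the lowest and the other 3 were close together, with miR-376c 0.22 below and siGRB2 0.06 below miControl (error 0.22 each). At A_33_P3240951 the level was −5.14 in miControl, −5.92 in siControl, −4.91 in miR-376c and −4.57 in siGRB2. Here both treatments were above both controls, as at the raised probe, but the difference from miControl was 0.22 (error 0.26) with miR-376c and 0.56 (error 0.25) with siGRB2. Against siControl the probe was 2.01-fold higher with miR-376c and 2.54-fold higher with siGRB2, the log2 error being 0.37 in each case. Both were under 2-fold with quantile normalization, at 0.79 and 0.97, and with the same normexp correction, at 0.27 and 0.64, and the first was also under it with the median shift, at 0.85, and in the deposited table, at 0.97.

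LRRN3, the leucine-rich repeat membrane protein, was measured by probe A_23_P31376, with levels of −4.50 in miControl, −5.72 in siControl, −4.52 in miR-376c and −2.09 in siGRB2. siGRB2 was the high array and siControl the low one, while miControl and miR-376c differed by 0.02 (error 0.23). With siGRB2 LRRN3 was higher by 2.41 than in miControl (5.31-fold, error 0.21) and by 3.63 than in siControl (12.4-fold, error 0.29). It was also 2.43 above the miR-376c array (error 0.22). With miR-376c the difference from siControl was 1.20 (error 0.31), but 0.997 with quantile normalization and 0.40 with the normexp correction, both under 2-fold. siControl itself was 1.22 below miControl, at a signal of 32.6 against 119.

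PADI2, the deiminase, had levels at probe A_23_P201747 of −4.77 in miControl, −5.08 in siControl, −4.82 in miR-376c and −1.82 in siGRB2. The siGRB2 array was again the high one. The signal was 564 there and 50.7 to 98.7 on the other 3 arrays. PADI2 was higher with siGRB2 by 2.95 than in miControl (7.71-fold, error 0.21) and by 3.26 than in siControl (9.59-fold, error 0.24). With miR-376c the differences were −0.05 from miControl and 0.26 from siControl, with errors of 0.23 and 0.26. The second probe, A_24_P187970, has the same transcript accession and gave signals of 81.1 in miControl, 9.04 in siControl, 20.1 in miR-376c and 23.2 in siGRB2. It was well above background on miControl alone, and relative to that array was lower by at least 2.56-fold after miR-376c and by at least 2.59-fold after siGRB2. With normexp the log2 difference of this probe between miR-376c and miControl was −0.34, where the bound above is −1.35. No fold is given against siControl, where neither array of the pair detected it. The 2 PADI2 probes thus differed in direction between siGRB2 and miControl in the main setting. For A_24_P187970 that direction rests on 1 miControl spot, of width 39.8 where the median spot of the array had 51.3. With normexp, run with or without the spots of high local background, this probe gave no fold between siGRB2 and miControl. The part of the spot width in the difference was not tested.

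Ranked by the smaller of its 2 differences from the negative controls among the 21239 probes detected on all 4 arrays, PADI2 A_23_P201747 stood at place 2 and LRRN3 at place 6 with siGRB2. GPC6 A_23_P371682 was at place 11 with miR-376c and 12 with siGRB2, and DPF3 A_33_P3423185 at 12 and 20. CLU was at 37 with miR-376c and at 186 with siGRB2. These places describe how the genes were chosen.

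**Figure D1:**
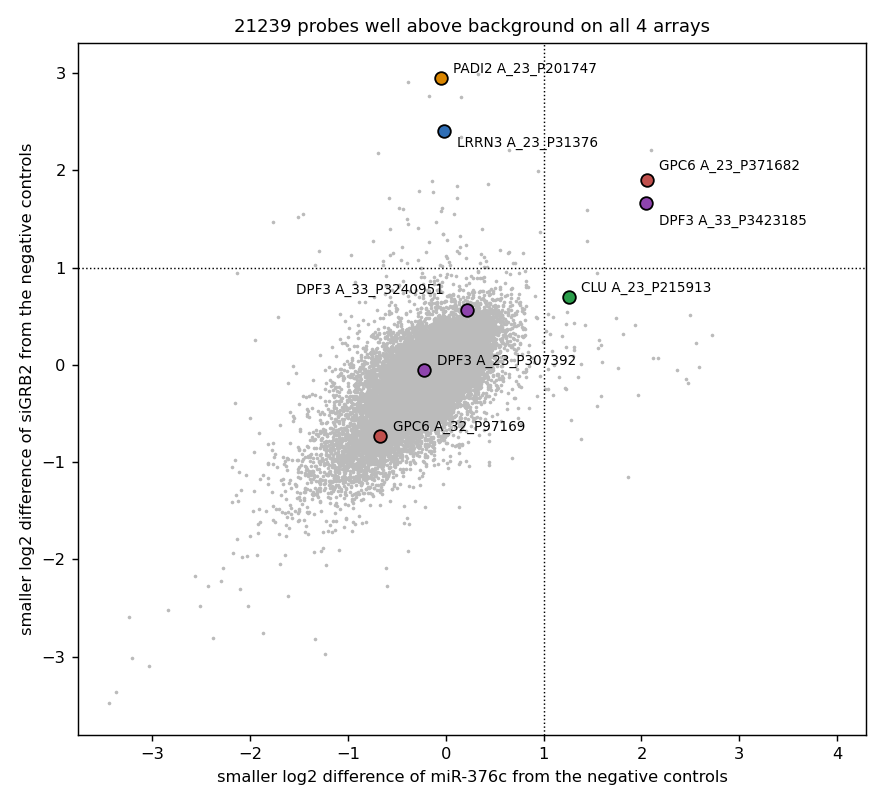
Each of 21239 probes by the smaller of its log2 differences from miControl and siControl, for miR-376c (x axis) and siGRB2 (y axis), with member probes detected on all 4 arrays in color and dotted lines at 2-fold. LRRN3 and PADI2 A_23_P201747 lie high near 0 on the x axis, GPC6 A_23_P371682 and DPF3 A_33_P3423185 lie past 2-fold on both axes, CLU past it for miR-376c only, and the other GPC6 and DPF3 probes within the cloud.

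How often probes of 1 gene differ was read from the 3208 genes with several probes detected on all 4 arrays. With miR-376c, 9 of these genes had a probe at least 2-fold above both controls, and in 0 of the 9 did every probe pass. With siGRB2, 21 genes had such a probe and 1 had every probe past the limit. GPC6 and DPF3 were among both sets. The distance between the highest and lowest log2 difference within GPC6 was 1.88 for miR-376c minus miControl and 2.80 for miR-376c minus siControl, where the median gene had 0.23 and 0.47. It was 1.79 and 2.71 for siGRB2, where the median gene had 0.19 and 0.48. At most 6 of the 3208 genes, GPC6 included, had a distance as wide in any of the 4 comparisons. Within DPF3 the distance was 3.35 and 1.59 for miR-376c and 2.80 and 1.04 for siGRB2, in the same order of controls. DPF3 was the widest gene of all for miR-376c minus miControl and 1 of the 3 widest for siGRB2 minus miControl, but 84 and 516 genes were as wide against siControl. GPC6 and DPF3 were chosen for a probe that was high in these same comparisons, so their wide distances follow in part from the choice. DPF3 also has 3 probes, and a distance over more probes tends to be wider. Nothing is read from the places of the 2 genes. Where on the transcript each probe lies was not analysed here.

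The profiles of the members over the 4 arrays were set against those of other genes. LRRN3 and PADI2 were both chosen for being high with siGRB2 on these arrays, so a likeness between them is fixed by the choice. Each probe was centred on its mean over the 4 arrays, and the root mean square of the differences was taken as the distance. Of 17441 candidate probes of other genes, the nearest to LRRN3 was PADI2 at 0.39, with LOC148696 close behind at 0.45 and CIMIP2C at 0.46. The nearest to PADI2 were LOC148696 at 0.17, GRIP2 at 0.18, a scaffold protein of glutamate receptors, and DIPK1A at 0.26, all nearer to it than LRRN3. The nearest to CLU were CNEP1R1 at 0.13, a regulator of a nuclear envelope phosphatase, EEF2KMT at 0.20, which methylates an elongation factor, and LOC392196 at 0.22. For GPC6 and DPF3 the rule took the brightest probe, which was not the raised one. GPC6 A_32_P97169 was nearest to MED21, a Mediator subunit, at 0.0098, AKAP11 at 0.011 and LINC00240 at 0.011, and DPF3 A_23_P307392 to MVB12A at 0.0060, MAPK14, a stress kinase, at 0.015 and LSM4 at 0.015. The distances for these brightest probes were far below the scanner error of their own spots, 0.14 to 0.18. Which genes came nearest to them is therefore not resolved. For the raised probes, a set looked at after their values were seen, GPC6 A_23_P371682 was nearest to HSD17B6 at 0.26, KRT42P at 0.38 and CLU at 0.45, and DPF3 A_33_P3423185 to GPC6 A_23_P371682 at 0.46, CLDN2 at 0.50 and HSD17B6 at 0.61. The 2 GPC6 probes lay 1.19 apart and the 2 DPF3 probes of 1 accession 1.28 apart, farther than the raised probes of GPC6 and DPF3 were from each other. The raised probes were chosen for being high with the treatments on these arrays, so this order of distances follows from the choice. With 4 arrays these distances are descriptions.

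The other genes of the same families were taken from 9 lists holding 93 genes, measured by 115 probes. With miR-376c, 0 of 94 probes tested were at least 2-fold above both controls and 0 were as far below, where 0.987% of all probes were above and 0.167% below. With siGRB2, 1 of 97 was above and 0 below, where 1.23% of all probes were above and 0.0992% below. The 1 probe was that of PADI6, a deiminase known from oocytes. It was detected on siGRB2 alone, with levels of −7.16 in miControl, −8.19 in siControl, −7.03 in miR-376c and −4.36 in siGRB2. The siGRB2 level was at least 2.63 above miControl and at least 1.96 above siControl. Of the other deiminases, PADI1 had a difference with siGRB2 of −0.28 from miControl and −0.63 from siControl, and PADI3 and PADI4 were detected on no array.

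Among the glypicans, the differences of GPC1 from both controls lay between −0.04 and 0.12 over both treatments. GPC2 was at −0.47 and −0.74 with miR-376c and at 0.55 and 0.29 with siGRB2, relative to miControl and siControl. GPC4 was at −0.78 and −0.28 with miR-376c and at −0.06 and 0.44 with siGRB2. Of the 2 GPC3 probes, A_33_P3326634 was between 0.86 and 1.02 below the controls and A_33_P3230264 between 0.08 and 0.24 below them, while GPC5 was detected on no array. The 8 probes of glypicans and syndecans other than GPC6 that were detected on all 4 arrays, of 12, had a median difference with miR-376c of −0.39 from miControl and −0.06 from siControl, and with siGRB2 of 0.00 and 0.19. Of 16 probes for enzymes that build or edit heparan sulfate, the chain that glypicans carry, 11 were detected on all 4 arrays, and their medians were −0.02 and −0.29 for miR-376c and 0.08 and −0.42 for siGRB2. All of these sat beside a median over all probes of −0.03 and 0.09 for miR-376c and 0.04 and 0.15 for siGRB2.

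Of 29 probes for the other BAF subunits, the 28 detected on all 4 arrays had medians of −0.04 from either control with miR-376c, and of 0.01 from miControl and −0.06 from siControl with siGRB2. Of the proteins that occupy the same place as DPF3, DPF1 was between 0.01 and 0.55 above the controls and DPF2 between 0.00 and 0.22 above them. PHF10 was at 0.19 with miR-376c and −0.16 with siGRB2 relative to miControl, but at −1.70 and −2.05 relative to siControl, the array that stood apart.

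The relatives of LRRN3 were spread around 0. LRRN1 was at −0.69 and −0.49 with miR-376c and 0.13 and 0.32 with siGRB2, relative to miControl and siControl, and LRRN2 between −0.01 and 0.51 over both. LRRN4 was above siControl by 1.58 with miR-376c and 1.24 with siGRB2, but above miControl by 0.61 and 0.28. Its siControl level of −6.18 lay next to the lowest level detected on that array, −6.32. Of 23 probes of LRRN, LRIG, LINGO, AMIGO, LRFN and FLRT genes, the 14 detected on all 4 arrays had medians of −0.17 and −0.19 for miR-376c and 0.14 and 0.13 for siGRB2. LRRN3 lies within an intron of IMMP2L, a mitochondrial peptidase gene, whose differences were between 0.03 and 0.26.

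For clusterin, 9 of 11 probes of complement regulators and other extracellular chaperones were detected on all 4 arrays and had medians of −0.19 and 0.28 with miR-376c and −0.26 and 0.24 with siGRB2, relative to miControl and siControl. Of 15 probes of heat shock response genes, which CLU is known to join under stress, the 14 detected on all 4 arrays had medians of 0.25 and 0.05 for miR-376c and 0.22 and −0.05 for siGRB2. Of 4 probes of the receptors LRP2, LRP8 and VLDLR, the 3 detected on all 4 arrays had medians of 0.48 and −0.49 with miR-376c and 0.41 and −0.44 with siGRB2, with opposite signs against miControl and siControl.

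The 2 annotated genes on each side of each member, 20 in all, had 23 probes, of which 15 were detected on all 4 arrays, and 0 were at least 2-fold above both controls with either treatment. SCARA3, beside CLU, had 2 probes, both above both controls, by 0.65 to 1.05 with miR-376c and by 0.32 to 0.83 with siGRB2. DOCK4, a guanine nucleotide exchange factor gene beside LRRN3, was lower with siGRB2 by 1.05 than in miControl and by 1.32 than in siControl. With miR-376c DOCK4 was at −0.66 and −0.92. Beside GPC6, DCT and TGDS were detected and SLITRK5 and GPC5 were not. Beside DPF3, DCAF4 and ZFYVE1 were detected and RGS6 was not. PADI2 lies next to PADI1 and PADI3, and on its other side to SDHB and ATP13A2, which was 1.02 above siControl and 0.01 above miControl with siGRB2.

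RefSeq promoter windows, each 250 bases before to 50 bases after an annotated start, were matched for 4 of the 5 genes, with 2 windows for DPF3. They are shown because 1 probe of each of these 4 genes was at least 2-fold above both controls with siGRB2, a likeness that the choice fixed. With miR-376c this held for GPC6 and DPF3 but not for LRRN3 and PADI2. The windows differed in base composition. GC content was 40% for GPC6, 57% and 63.3% for DPF3, 46% for LRRN3 and 69% for PADI2, where the median of 35116 windows was 58.7%. The number of CpG dinucleotides was 6, 18 and 21, 5 and 28 in the same order, where the median was 14. Searched on both strands, a TATA box (TATAAA) was found in the GPC6 window alone, while 11.5% of all windows held one. A CCAAT box (CCAAT, or ATTGG on the other strand) was found in both DPF3 windows and in the LRRN3 window, and in 34.6% of all windows. A GC box (GGGCGG) was found in both DPF3 windows and 6 times in the PADI2 window, where the matches 52 and 47 bases before the start share 1 base, and in 45.0% of all windows. An AP-1 site (TGANTCA) was found in 0 of the 5 windows and in 7.71% of all. The matches below are on the strand of the gene, with the motif in capitals, and were chosen to show the box that each gene held.
GPC6, TATA box 155 bases before the start (GRCh38.p14, chr13:93226644-93226665, plus strand): cagatcggTATAAAggatgtga
DPF3, CCAAT box on the other strand 87 bases before the start (chr14:72894176-72894196, minus strand): cagcgccgATTGGccggcggg
DPF3, CCAAT box on the other strand 56 bases before the start (chr14:72894145-72894165, minus strand): gcgctgtgATTGGcccgtcgc
LRRN3, CCAAT box on the other strand 65 bases before the start (chr7:111091054-111091074, plus strand): ctgaagcgATTGGctcctctc
PADI2, GC box 126 bases before the start (chr1:17119564-17119585, minus strand): cctcagcgGGGCGGgacgagtt
PADI2, GC box 110 bases before the start (chr1:17119548-17119569, minus strand): cgagttagGGGCGGgaccacgc
The motifs do not overlap in the stretches shown. Which start was used in these cells was not measured, and a match describes letters in the window.

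The normexp background correction, run without the spots of high local background, made most differences of the raised probes smaller. Its offset of 50 by itself shrinks differences between small signals, and the raised probes of GPC6 and DPF3 had signals of 21.7 to 157. A fall under 2-fold at these probes is therefore no independent check of them. The difference of GPC6 A_23_P371682 from siControl came to 0.87 for miR-376c and 0.84 for siGRB2. DPF3 A_33_P3423185 came to 0.90 and 0.73, so that all 4 values were under the 2-fold limit. Differences of these probes from miControl stayed past it, at 1.23 and 1.20 for GPC6 and at 1.68 and 1.52 for DPF3. LRRN3 with siGRB2 was 1.92 above miControl and 2.18 above siControl under this correction, and PADI2 A_23_P201747 was 2.28 and 2.19 above them. CLU with miR-376c was 1.19 and 1.43 above the controls.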

How the data were processed

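Total RNA (200 ng per culture) was labelled with Cy3 and hybridised to 1-color Agilent 4x44K arrays, 4 in all, on 1 slide. Per the file headers, the authors' deposited intensity values were made with Agilent Feature Extraction (10.7 in the submitters' notes, 10.7.3.1 in the headers) on a design of build hg19; the processed signal is background-subtracted and carries the software's own error. The authors' deposited table of log2 values, made with GeneSpring GX, equalled log2 processed signal up to a constant per array within 0.01 for at least 99.95% of probes, and was used as an alternative.

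Here log2 processed signal minus each array's 75th percentile over non-control spots was computed, outlier spots were left out (289 to 329 per array, 0 saturated) and spots of a probe were averaged. The median SD between repeated spots of a probe was 0.049 to 0.054. A probe not well above background on an array gave a bound, taken from the lowest detected signal. A probe was called at a 2-fold difference. No test was made, since each condition had 1 array, and the precision is limited by that number; all arrays shared 1 slide and 1 scan.

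Of 34127 probes, 74.5% were named through their accession with RefSeq tables (GRCh38.p14, names and gene order only). The CLU accession and the cDNA accession of 2 DPF3 probes were named through the study's probe list, which also holds the raised CLU, GPC6 and DPF3 probes as chosen on these arrays and is no independent evidence. The genes, lists, markers and rules were chosen with earlier results of these data known. The genes named are the members, GRB2, list genes past 2-fold against both controls, the closest family members, 2 neighbours on each side and the 3 nearest profiles of each member. Alternatives were quantile normalization, a median shift, the percentile over detected probes, normexp (offset 50), the deposited table, outlier spots kept, 2 other detection rules, gene means, and limits of 1.5-fold and 3-fold. Python 3.11.15, numpy 2.4.6, pandas 2.3.3, R 4.3.3 and limma 3.58.1 were used, and the calling step was tested on simulated data.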

Additional observations from a re-analysis of the deposited data

How the results depend on the processing

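Counts of probes at least 2-fold above both controls are given for miR-376c, siGRB2 and both treatments in that order; they were 3, 4 and 2 for the members and 225, 286 and 15 for all probes. With normexp they were 1, 7 and 1 for the members and 70, 11658 and 25 for all; 7 spots of the siGRB2 array had a local background over 10 times the median, and the median difference of all probes between siGRB2 and siControl was 1.03 under this setting. Leaving out those spots, an alternative chosen after seeing the data, gave 1, 2 and 0 for the members and 70, 105 and 2 for all. The median difference of all probes between siGRB2 and siControl was then 0.11. For all probes the counts were 486, 732 and 86 with the positive-and-significant flag, 54, 79 and 5 where detection on all 4 arrays was required, 465, 622 and 66 at 1.5-fold, and 126, 159 and 8 at 3-fold. With the mean over the probes of a gene, 1 member passed with both treatments, DPF3, at 1.04 to 1.21. That mean rests on probe A_33_P3423185, at 1.67 to 3.13, since neither other DPF3 probe passed against both controls. The cause of these shifts was not tested beyond the run without those spots. The normexp offset makes differences between small signals smaller, and stricter detection and other limits test fewer probes or move the limit itself. Of the differences of single member probes over all alternatives, 250 moved by less than the scanner error and 52 by more. Of the 52, 23 were under normexp and 19 under normexp without the spots of high local background. Under normexp DPF3 A_23_P307392, siGRB2 minus miControl, changed sign past the 2-fold limit, from −0.06 to 3.02. The median of all probes, siGRB2 minus siControl, was 0.15 as reported and −0.13 with a median shift, under which CLU with siGRB2 was 0.84 above siControl. Spots near background, as for GPC6 A_23_P371682 and DPF3 A_33_P3423185 in the negative controls and for LRRN3 in siControl, limit the size of a fold. No paired analysis was possible because there was 1 array for every condition.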
